A study of Trametes sanguinea with 15 samples.

Results

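The response of Pycnoporus sanguineus to crystalline cellulose was read from the 3 Avicel libraries set against the 3 maltose libraries, 6 of the 15 libraries in the series. All gene models of the raw count table were considered, and 11724 of 14165 passed the filter on low counts and were tested. The fungus is a white-rot basidiomycete, here the strain CIRM-BRFM 1264, and mycelium was taken on day 3 of liquid culture. Maltose cultures held 20 g/l of maltose. Avicel cultures held 15 g/l of Avicel, a microcrystalline cellulose, together with 2.5 g/l of maltose, so the effect of adding cellulose and that of lowering maltose cannot be told apart in this comparison. The series also holds 3 libraries each from aspen, wheat straw and xylan-galactomannan, all at the same 2.5 g/l of maltose, and these were used for comparisons at matched maltose. The study describes independent triplicate cultures, and all libraries come from 1 strain.

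Cellulose is a crystalline polymer of glucose that fungi open with several kinds of secreted enzyme acting together. Cellobiohydrolases of the families GH7 and GH6 run along the chains and release cellobiose, lytic polysaccharide monooxygenases of family AA9 cut chains within the crystal by oxidation, and cellobiose dehydrogenase, an AA8 cytochrome domain joined to an AA3_1 flavin domain, can supply the electrons for that reaction. Many of these enzymes carry CBM1, a small module that binds cellulose.

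Avicel libraries held 40478432 to 50428442 counts and maltose libraries 29367468 to 31784662. Levels are given as CPM, the counts of a gene relative to the library total after TMM scaling, a scaling that assumes most genes to be alike between libraries. Since a CPM is a share of the RNA sampled, fewer cells and less RNA per cell cannot be told apart. Gene functions were known for 98 genes, from the annotation the study published with its gene lists, and the remaining genes are given by ID. The study chose those lists on these same libraries, so the direction of a list on Avicel is not independent evidence.

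On Avicel, 429 genes were called higher and 521 lower than on maltose, at an adjusted p under 0.05 with a change above 2-fold. These are 3.66% and 4.44% of the genes tested. The calls came from edgeR's quasi-likelihood test with Benjamini-Hochberg adjustment. The median change of the genes called higher was 2.04 on the log2 scale, and 37 of them passed a log2 fold change of 6. The genes called lower had a median absolute change of 1.85, and 12 passed 6. Avicel and maltose libraries did not overlap in 411 of the genes called higher and in 487 of those called lower. Over all genes tested, 26.8% had no overlap between the groups in one or the other direction.

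The mean level of the genes called higher had a median of 9.01 CPM on maltose, with 55 genes under 1 CPM, 169 from 1 to 10 CPM, 174 from 10 to 100 CPM, 29 from 100 to 1000 CPM and 2 at 1000 CPM or more, whereas on Avicel the median was 59.7 CPM and 41 genes reached 1000 CPM or more. Together they held 1.52%, 1.65% and 1.76% of the counts of maltose 1, 2 and 3. In Avicel 1, 2 and 3 they held 24.8%, 16% and 15.5%. The 35 genes that rose by over 6 (log2) in a fit without Avicel 1 held 17.2%, 8.41% and 7.98% of these libraries. Nearly all of the gap between the Avicel cultures thus lay in those 35 genes. The genes called lower moved the other way, from 14.5%, 11% and 13.1% of the counts of the maltose libraries to 2.74%, 2.71% and 2.73% of those of the Avicel libraries. In raw counts the Avicel cultures thus differed in the share held by the raised genes and were nearly alike in that of the lowered genes. These shares are taken before TMM scaling. The TMM factors of Avicel 1, 2 and 3 were 0.739, 0.94 and 0.969, so like shares do not mean like CPM levels. These genes were chosen by the same contrast, so the shares are a description.

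**Figure D1:**
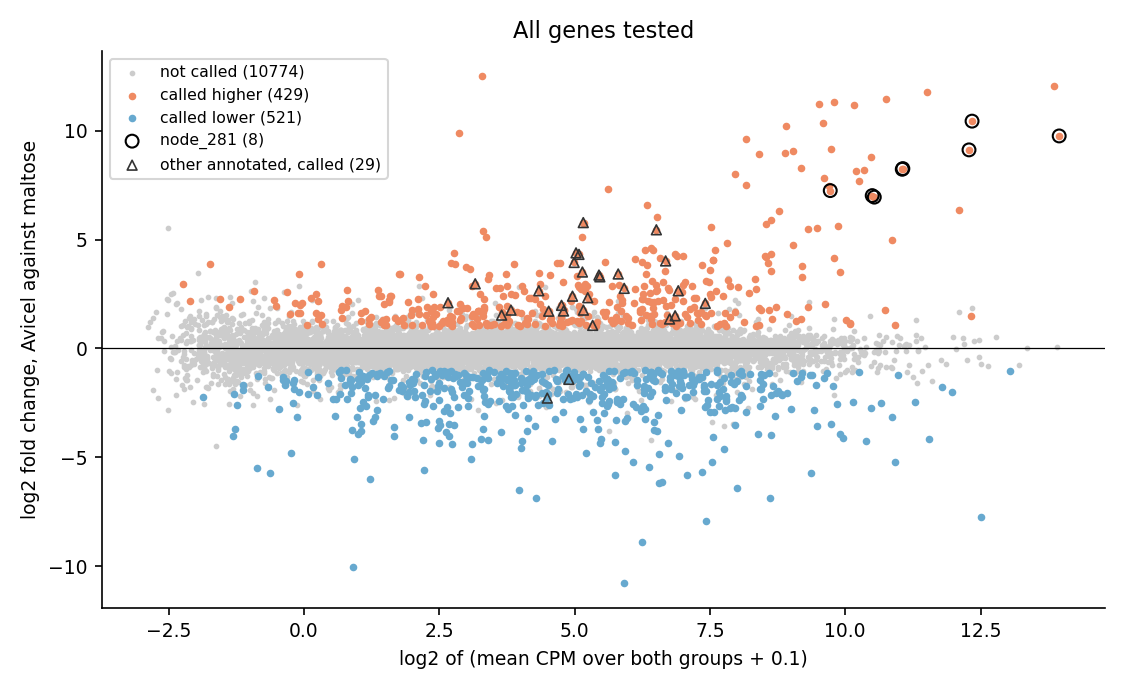
Mean level over the maltose and Avicel libraries (x axis, log2 of CPM plus 0.1) against the log2 fold change, Avicel over maltose (y axis), with 1 point for each of the 11724 genes tested. Orange points are the 429 genes called higher, blue points the 521 called lower, circles the 8 genes of node_281 and triangles the other annotated genes that were called. The circled genes sit at the upper right, at log2 fold changes from 6.95 to 10.44.

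The genes of node_281, a cluster of 8 co-expressed genes on the study's transcriptome map, were all called higher. They encode the core of a cellulose-degrading enzyme set, and enzymes of families named for other substrates. These are a GH5_7 enzyme (a family of mannanases), a GH28 enzyme (a family of pectin-cutting polygalacturonases) and a GH74 enzyme (a family of xyloglucanases). The transcript of the GH7 cellobiohydrolase (ID 1675671) was at 32.7, 56.3 and 20.6 CPM in maltose 1, 2 and 3 and at 61159, 17907 and 16007 CPM in Avicel 1, 2 and 3. The GH6 cellobiohydrolase with a CBM1 module (ID 1567787) was at 7.01, 9.48 and 5.97 CPM on maltose and at 17476, 7231 and 6452 CPM on Avicel. In both genes every Avicel library lay far above every maltose library, and Avicel 1 lay more than 2-fold above the other Avicel libraries.

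The AA9 monooxygenase with a CBM1 module (ID 1583489) was at 16.8, 20.6 and 16.2 CPM on maltose and at 22225, 3948 and 3760 CPM on Avicel. Cellobiose dehydrogenase (AA8-AA3_1, ID 1672751) was at 13.9, 17.3 and 10.6 CPM on maltose and at 8467, 2244 and 2101 CPM on Avicel. The level in Avicel 1 was 5.77 times the mean of Avicel 2 and 3 for the monooxygenase and 3.9 times for the dehydrogenase. The cellobiohydrolases stood at 2.55 times (GH6) and 3.61 times (GH7), so the dehydrogenase was close to GH7. The GH131 enzyme with a CBM1 module (ID 571793, a family of beta-glucanases) was at 9.43, 17.4 and 15.5 CPM on maltose and at 6051, 3492 and 3168 CPM on Avicel. The GH74 enzyme (ID 1721886, a family of xyloglucanases) was at 24.1, 24.8 and 22.3 CPM on maltose and at 3463, 2929 and 2449 CPM on Avicel. GH74 was the most even of the 8 between cultures, with Avicel 1 at 1.29 times the mean of the others.

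The GH5_7 enzyme with a CBM1 module (ID 1672345) was at 13.3, 13 and 6.7 CPM on maltose and at 2826, 1112 and 1099 CPM on Avicel. The GH28 enzyme (ID 1738933) was at 31, 22.5 and 12.9 CPM on maltose and at 4487, 2039 and 2087 CPM on Avicel. Neither group overlapped the other in any of the 8 genes, and Avicel 1 was the highest library in all 8. Per kilobase of gene model, the mean level on Avicel ran from 19562 CPM for GH7, through 10234 for AA9 and 7659 for GH6, to 3257 for GH131, 1849 for cellobiose dehydrogenase, 1648 for GH28, 1258 for GH5_7 and 1209 for GH74.

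The log2 fold changes of the cluster depended on the first Avicel culture in size but not in call. With all libraries they were 10.44 ± 0.53 for GH6 (standard error, adjusted p = 5.3e-08), 9.76 ± 0.98 for GH7 (adjusted p = 2.3e-05), 9.12 ± 0.79 for AA9 (adjusted p = 5.9e-06) and 8.26 ± 0.65 for cellobiose dehydrogenase (adjusted p = 2.4e-06). Without Avicel 1 they were 9.84, 8.86, 7.75 and 7.28, and each stayed past the threshold. GH131 and GH74 moved little, from 8.23 ± 0.42 to 7.88 and from 6.95 ± 0.32 to 6.82. GH5_7 went from 7.25 ± 0.56 to 6.65 and GH28 from 7.02 ± 0.55 to 6.54.

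All 98 annotated genes were tested, and 35 were called higher and 2 lower. Outside node_281 the calls were 27 higher and 2 lower of 90 genes, with a median log2 fold change of 0.63 against 0.00 over all genes tested. These counts and those of the lists within them stand beside 3.66% called higher and 4.44% called lower over all genes tested, and the genes were picked by the study on these libraries. Of the 7 hemicellulose-active genes 4 were called higher, and of the 5 genes listed as pectin-active (GH79 among them) 3, in each case including the member in node_281. The CE15 enzyme (ID 1679979, a family of glucuronoyl esterases that free xylan from lignin) was at 0.955, 1.49 and 1.37 CPM on maltose and at 146, 30.4 and 33.2 CPM on Avicel (5.78 ± 0.83, adjusted p = 0.00055, and 4.65 without Avicel 1). The CE16 enzyme (ID 1592100, a family of acetyl esterases) was at 14.7, 11 and 3.79 CPM on maltose and at 25.1, 69.3 and 62.3 CPM on Avicel (2.40 ± 0.50, adjusted p = 0.0068). The call of CE16 ended with only the 6 libraries of the comparison in the fit (adjusted p = 0.073). These esterases had opposite orders among the cultures, CE15 highest and CE16 lowest in Avicel 1.

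The GH43 enzyme (ID 1561085, a family acting on xylan and arabinan side chains) rose by 3.51 ± 0.49 (adjusted p = 0.00047), with 59.8, 62.8 and 71.7 CPM in the Avicel libraries, so that Avicel 1 stood at 0.888 times the mean of the others. Among genes listed as pectin-active, the CE8 pectin methylesterase (ID 1577721) rose by 5.45 ± 0.62 (adjusted p = 8.7e-05), to 244, 147 and 144 CPM. The GH79 enzyme (ID 1561925) was listed with them, though its family gives no evidence of action on pectin. It rose by 2.33 ± 0.35 (adjusted p = 0.00077), to 75.9, 54.9 and 58 CPM. Both GH3 genes were called higher. This family holds beta-glucosidases, which split cellobiose into glucose. The first (ID 1577052) was at 9.81, 8.19 and 4.97 CPM on maltose and 47.7, 98.9 and 92 CPM on Avicel (3.37 ± 0.55, adjusted p = 0.0015). The second (ID 1537322) was at 9.81, 17.2 and 11.6 CPM on maltose and 25.6, 48.6 and 53.1 CPM on Avicel (1.72 ± 0.47, adjusted p = 0.031). Its call ended without Avicel 2 (adjusted p = 0.093), Avicel 3 (0.11), maltose 1 (0.11) or maltose 3 (0.078). That call also ended with limma-voom (0.051) and with scaling by library size alone (0.055). Both were lowest in Avicel 1, at about the same ratio to the other cultures (0.5 and 0.503), whereas the cellobiohydrolases were highest there.

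Enzymes of chitin, the fungal wall and glycoprotein glycans were called in 3 of 11 cases, all higher (3.66% over all genes tested). A GH18 chitinase-family gene (ID 1615206) rose from 12.1, 11 and 12.8 CPM to 357, 103 and 121 CPM (4.02 ± 0.43, adjusted p = 4.2e-05, and 3.22 without Avicel 1). A second GH18 gene (ID 1601452) rose from 6.05, 7.04 and 15.7 CPM to 64.6, 127 and 115 CPM (3.42 ± 0.59, adjusted p = 0.0022). These 2 genes of 1 family again had opposite orders, the former highest and the latter lowest in Avicel 1. The GH92 alpha-mannosidase-family gene (ID 1663870) was at 32.8, 36.8 and 29.6 CPM on maltose and at 434, 93.3 and 96.5 CPM on Avicel (2.65 ± 0.51, adjusted p = 0.004, and 1.52 without Avicel 1), and its call ended with only the 6 libraries of the comparison in the fit (adjusted p = 0.073). The GH13_1 gene (ID 1682233), from the alpha-amylase family that acts on starch-type glucans, rose from 51.2, 58.9 and 87 CPM to 456, 186 and 184 CPM (2.07 ± 0.36, adjusted p = 0.0021). The PL8 gene (ID 1592999), from a polysaccharide lyase family, rose from 7.32, 12.1 and 13.3 CPM to 25.1, 49.1 and 54.9 CPM (1.98 ± 0.31, adjusted p = 0.0011).

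Of 6 cytochrome P450 genes 0 were called higher, by edgeR and by DESeq2 alike, and 1 was called lower, while at an unadjusted p under 0.05 there was 1 in each direction. The lowered one was the P450 gene of class KOG0156 (ID 1742239), at 40.6, 43.5 and 27.3 CPM on maltose and 12, 5.23 and 5.76 CPM on Avicel (-2.28 ± 0.40, adjusted p = 0.0022). The laccase (AA1_1, ID 1560767), a multicopper oxidase of a family tied to lignin oxidation, was at 47.1, 18.4 and 10.8 CPM on maltose and at 1.88, 8.07 and 6.2 CPM on Avicel. These groups did not overlap, but the difference of -2.24 ± 0.77 did not pass the test (adjusted p = 0.082). It passed with DESeq2 (-2.21, adjusted p = 0.014). Of 9 transporters of the major facilitator superfamily 1 was called in each direction, beside the 3.66% and 4.44% of all genes tested. The sugar-transporter-type gene of class KOG0254 (ID 1593966) rose from 1.62, 1.83 and 2.58 CPM to 22, 12.1 and 12.9 CPM (2.97 ± 0.45, adjusted p = 0.00079). A permease-type gene of class KOG2533 (ID 1621676) was at 64.6, 44.2 and 20.5 CPM on maltose and at 17.5, 15.1 and 15.8 CPM on Avicel (-1.42 ± 0.37, adjusted p = 0.023). That call ended without Avicel 2 (adjusted p = 0.088), Avicel 3 (0.08), maltose 1 (0.1) or maltose 2 (0.06), and with only the 6 libraries in the fit (0.1).

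Of 5 proteases 2 were called higher. The weaker was a serine carboxypeptidase (ID 1608570), at 55.9, 47 and 79 CPM on maltose and 125, 173 and 167 CPM on Avicel (1.35 ± 0.39, adjusted p = 0.038). Its call ended without Avicel 2, Avicel 3 or maltose 1 (adjusted p = 0.11 each) or maltose 2 (0.14), which left 1 protease called. A gene annotated as a tripeptidyl-peptidase (ID 1643269), an enzyme type that trims peptides from their amino end, was at 2.8, 2.64 and 6.14 CPM on maltose and at 11.1, 90.5 and 76.8 CPM on Avicel (3.95 ± 0.67, adjusted p = 0.0018). Among the 44 genes of other annotations 12 were called higher and 0 lower. The 12 became 7 without maltose 2 and also with only the 6 libraries in the fit. DESeq2 also called 0 of them lower, and 1 had an unadjusted p under 0.05 in that direction. They included an aldo/keto reductase (KOG1577, ID 1578979) that rose by 4.39 ± 0.54 (adjusted p = 0.00016), to 101, 37.2 and 47.5 CPM, and a protein kinase-type gene (KOG1187, ID 1602759) that rose by 4.32 ± 0.54 (adjusted p = 0.00019), to 73, 63.6 and 56 CPM. The latter rose by 5.08 without maltose 3. The kinase-type gene was nearly level between cultures, and the tripeptidyl-peptidase gene differed most among all annotated genes called higher.

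**Figure D2:**
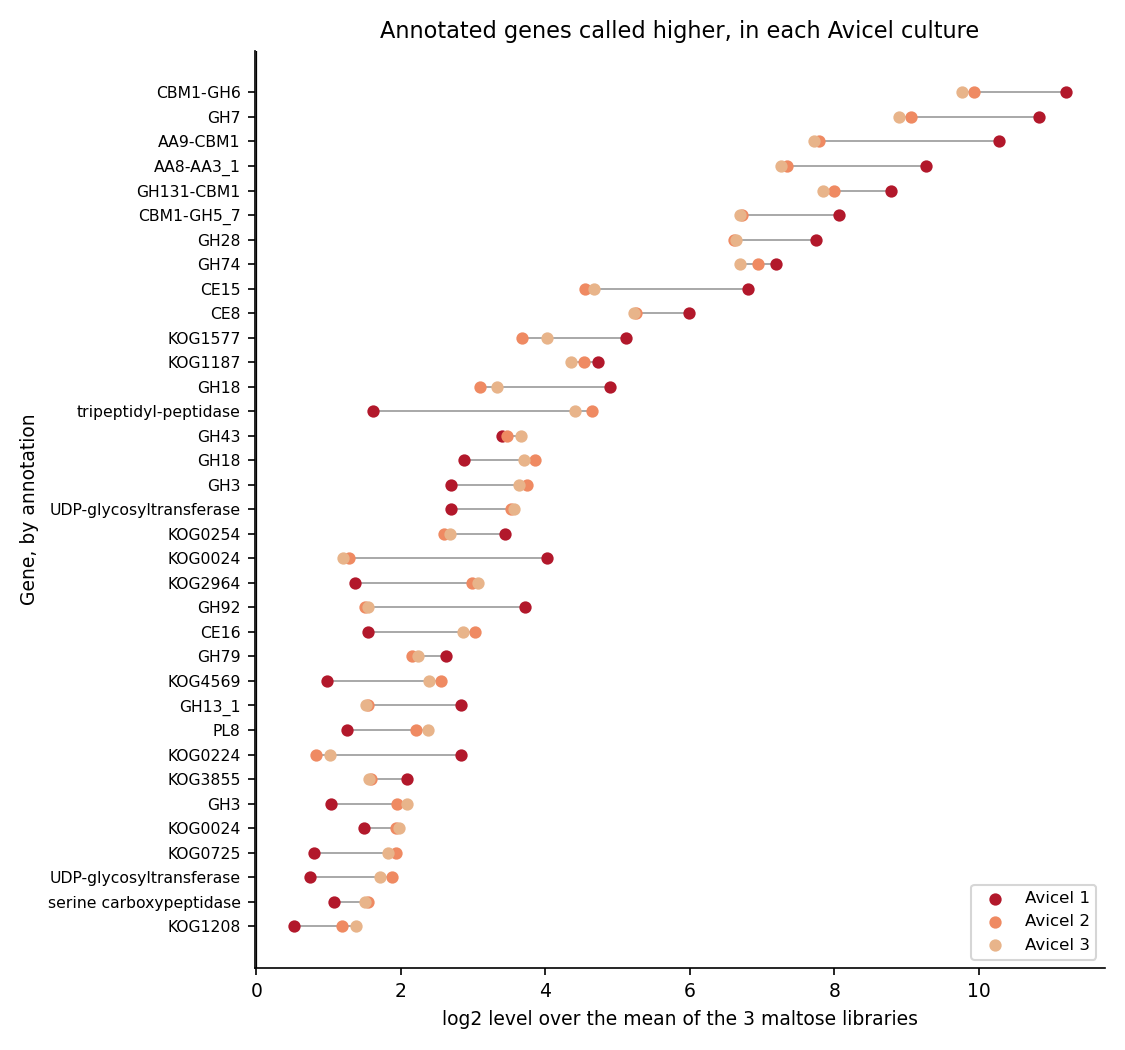
Level of each of the 35 annotated genes called higher (y axis, in order of the fitted change) in Avicel 1, 2 and 3, as the log2 difference from the mean of the 3 maltose libraries (x axis), with a grey line from the lowest to the highest culture. Avicel 2 and Avicel 3 nearly coincide for most genes, while Avicel 1 lies to their right for all 8 genes of node_281 at the top and to either side further down, from 4.02 against 1.28 and 1.20 for a gene of class KOG0024 to 1.62 against 4.64 and 4.41 for the tripeptidyl-peptidase gene.

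Most of the called genes had no annotation here, with 394 of the 429 genes called higher and 519 of the 521 called lower. Gene 1583090 had the largest count in Avicel 2 and in Avicel 3, with 2.25% and 2.15% of all counts, and GH7 had it in Avicel 1, with 4.52%. Gene 1583090 was at 7.87, 7.45 and 5.53 CPM on maltose and at 43348, 23883 and 22160 CPM on Avicel (12.06 ± 0.54, adjusted p = 2.3e-08). Gene 1588880 had no counts in the maltose libraries and was at 6.25, 26 and 26 CPM in the Avicel libraries. Against a floor of 3 counts per library, the highest of which stands at 0.121 CPM, its mean on Avicel was at least 160-fold higher. Unlike gene 1583090, it was lowest in Avicel 1.

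The 2 largest falls among unannotated genes came with uneven maltose libraries. Gene 1545845 was at 199, 157 and 5.37 CPM in maltose 1, 2 and 3 and had 1, 5 and 2 counts in Avicel 1, 2 and 3 (adjusted p = 0.00039). At so few counts its fold change is not given. Gene 1651739 was at 273, 175 and 5.33 CPM on maltose and at 0.107, 0.42 and 0.396 CPM on Avicel (-8.90 ± 1.23, adjusted p = 0.00044). In both, maltose 3 was far below the other maltose libraries and still above every Avicel library. With limma-voom neither passed, at adjusted p = 0.077 and 0.06, and the log2 fold change of gene 1651739 was -8.16 without maltose 1. Such spread was frequent among lowered genes. Of those called lower 18.6% differed by over 4-fold between the highest and the lowest maltose library, against 5.65% of all genes tested. Of those called higher 11% differed by over 4-fold among the Avicel libraries, against 4.56% of all genes tested.

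The Avicel libraries were then compared at matched maltose with those from the other polymers. Against aspen, 1504 genes were called higher on Avicel and 1730 lower (12.8% and 14.8% of genes tested). Against wheat straw the calls were 576 higher and 900 lower (4.91% and 7.68%), and against xylan-galactomannan 531 and 1067 (4.53% and 9.1%). The split depended on scaling for the plant materials. With library size alone it was 725 higher and 3113 lower against aspen and 280 higher and 1633 lower against wheat straw. These 3 comparisons share the Avicel libraries, and their values are given side by side only.

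All 8 genes of node_281 were called higher on Avicel in each of these comparisons, with a median log2 fold change of 4.55 against aspen, 3.33 against wheat straw and 8.10 against xylan-galactomannan. The GH7 transcript differed most, by 9.24 against aspen (adjusted p = 1.0e-05), 6.82 against wheat straw (adjusted p = 0.00022) and 9.68 against xylan-galactomannan (adjusted p = 2.0e-05). Its level was 36.2, 44.2 and 77.1 CPM in the aspen libraries, 333, 448 and 61.6 CPM in the wheat straw libraries and 52, 29.8 and 34 CPM in the xylan-galactomannan libraries, all far below the lowest Avicel library (16007 CPM). The GH5_7 transcript differed least, by 2.42 (adjusted p = 0.00076), 1.85 (adjusted p = 0.0085) and 3.28 (adjusted p = 0.00029). In counts, the 8 genes held 3.6 to 9.32% of an Avicel library, 0.164 to 0.276% of an aspen library, 0.401 to 0.607% of a wheat straw library, 0.0261 to 0.0541% of a xylan-galactomannan library and 0.00935 to 0.0176% of a maltose library. The lowest Avicel library thus held several times the share of the highest library of any other group.

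Other raised genes did not all stand above their level on the other substrates at matched maltose. Of the 90 annotated genes outside node_281, raised or not, 2 were called higher on Avicel than on aspen. Against wheat straw 0 were, and against xylan-galactomannan 9. Those called lower were 59, 59 and 31, to be read beside the shares over all genes given above. Many of the 90 were picked by the study as high on plant material and not on Avicel, so these counts were partly set by that choice. Gene 1588880 differed by 0.81 ± 0.64 from aspen (adjusted p = 0.32) and by -0.35 from wheat straw (adjusted p = 0.73), and was 4.57 higher than on xylan-galactomannan (adjusted p = 0.0018). The CE15 esterase differed by 1.45 ± 0.67 from aspen (adjusted p = 0.09), by -0.14 from wheat straw (adjusted p = 0.9) and by -1.56 from xylan-galactomannan (adjusted p = 0.099). The aldo/keto reductase of class KOG1577 was lower on Avicel than on each of the 3, by -1.25 (adjusted p = 0.042), -2.03 (adjusted p = 0.0082) and -4.03 (adjusted p = 0.00015). Among the 9 transporters of the major facilitator superfamily 7 were lower on Avicel than on xylan-galactomannan (median -2.37, against -0.05 over all genes tested). The study had picked them for higher levels on aspen or wheat straw than on maltose and Avicel, so the Avicel side of that difference was part of their choice.

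The 3 Avicel cultures did not respond with the same profile. Avicel 2 and Avicel 3 were close to each other, with 1.46% of genes over 2-fold apart, whereas Avicel 1 was over 2-fold apart from them in 17.4% and 16.2% of genes. The maltose libraries were 6.92%, 19.3% and 11.7% apart in their 3 pairs. The labels and the study give Avicel 2 and 3 as separate cultures, and they were kept as such. Set against the mean of the other libraries of its group, Avicel 1 was over 2-fold above in 779 genes and below in 1126. Avicel 2 had 394 and 258 such genes and Avicel 3 had 319 and 188. The libraries most like Avicel 1 in this respect were maltose 3, with 825 above and 875 below, and xylan-galactomannan 2, with 1129 and 1086. Aspen and wheat straw libraries had at most 233 above and 164 below.

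**Figure D3:**
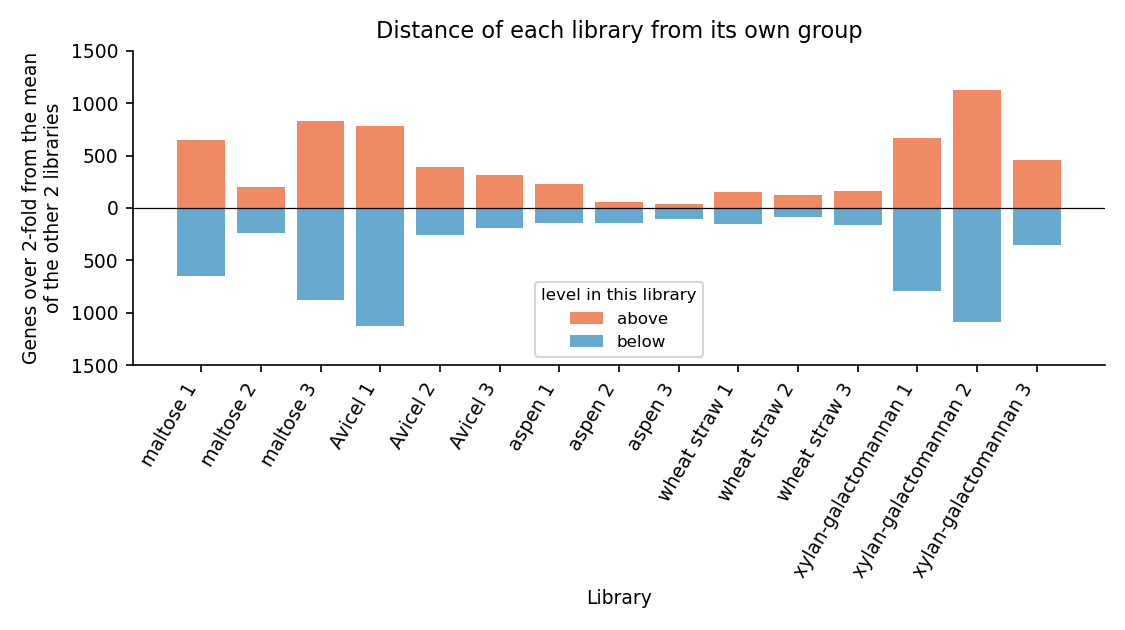
Number of genes (y axis) that lay over 2-fold above (orange, upward) or below (blue, downward) the mean of the other 2 libraries of the group, for each of the 15 libraries (x axis). Avicel 1 reached 779 above and 1126 below, while Avicel 3 reached 319 and 188 and aspen 3 reached 34 and 101.

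The number of calls moved with the culture left out. Without Avicel 1, 515 genes were called higher and 585 lower, of which 382 and 422 were also called with all libraries. Without Avicel 2 there were 351 and 360 calls, and without Avicel 3 there were 348 and 352, of which 340 and 336 were also called with all libraries. Thus the pair of similar cultures gave more calls than all 3 together. None of the genes called in both fits changed direction.

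Strength was then compared between cultures. For each Avicel culture, genes were taken that were called from the other 2 cultures alone, so that the culture's own values did not choose them, and its level was set against the other 2. These are descriptions of single cultures without a test. Among 514 genes called higher without Avicel 1, the median difference from maltose was 1.36 in Avicel 1, against 1.95 in Avicel 2 and 1.89 in Avicel 3 (log2), and 86.4% lay above the maltose mean in Avicel 1 too. Avicel 1 lay above both others in 158 of these genes and below both in 330. Among 585 genes called lower without it, the median was -1.28 in Avicel 1 against -1.78 and -1.72. Taken gene by gene, Avicel 1 differed from the mean of the others by a median of -0.49 among the raised genes and 0.53 among the lowered. Avicel 2, left out in turn, differed by -0.10 and Avicel 3 by -0.17 among raised genes. Part of this gap is set by construction, since genes chosen on 2 cultures favour those cultures. With the 429 genes called from all libraries, the median difference of Avicel 1 was 0.01, with 202 genes above both others and 199 below both. Scaled by library size alone, the same 429 genes gave a median difference of -0.35. A weaker response of Avicel 1 across all raised genes therefore depended on how the genes were chosen and on the scaling.

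By the size of the rise the picture was different, and did not depend on the choice of genes at the upper end. The size classes were chosen after the values were seen. Among the 35 genes that rose by over 6 (log2) in the fit without Avicel 1, that culture lay above both others in 32 and below both in 3, with a median difference of 1.12. Among the genes that rose by 1 to 2 it lay above both in 55, between them in 17 and below both in 209, with a median difference of -0.57. The classes between, from 2 to 3, from 3 to 4 and from 4 to 6, had median differences of -0.50, -0.76 and 0.02. With genes called from all libraries, the class over 6 had Avicel 1 above both in 35 of 37 genes (median 1.16), the class from 4 to 6 above both in 25 of 34 (median 0.76) and the class from 1 to 2 below both in 116 of 214 (median -0.12). Scaling by library size alone shifted each value of Avicel 1 downward, and the class over 6 kept a median of 0.75 in the former set and 0.79 in the latter. Over all 11724 genes Avicel 1 was above both others in 44.8% and below both in 44.2%.

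**Figure D4:**
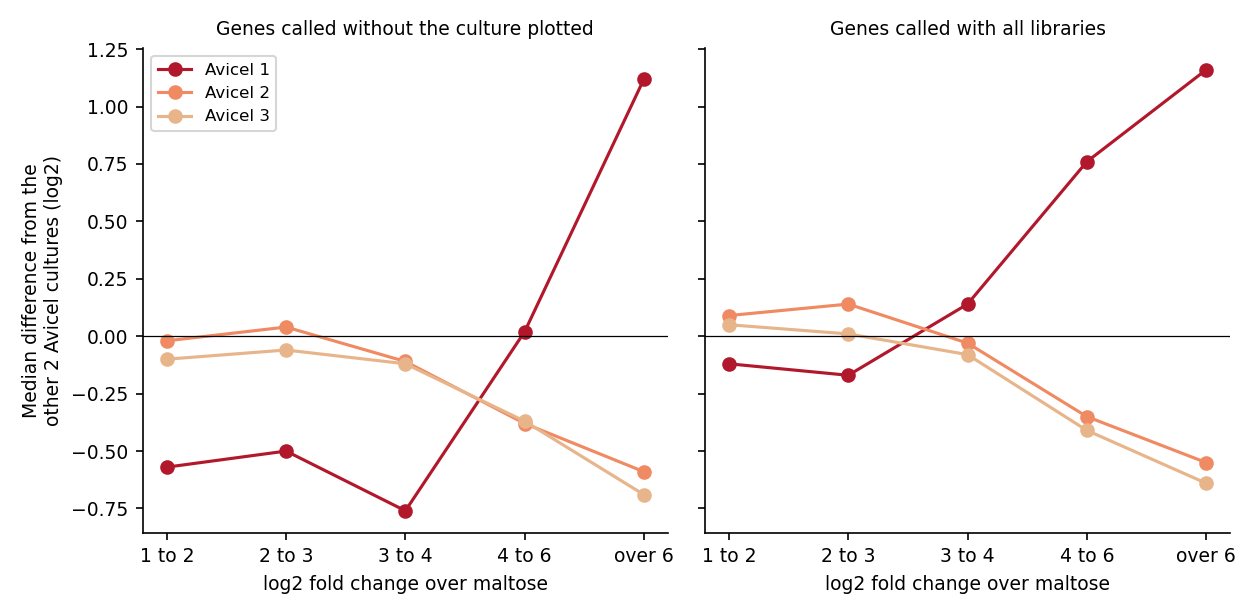
Median difference of each Avicel culture from the mean of the other 2 (y axis, log2 CPM) for genes called higher than on maltose, by the size of their log2 fold change (x axis). In the left panel genes and sizes come from the fit without the culture plotted, and in the right panel from all libraries. Avicel 1 ends at 1.12 and 1.16 in the class over 6, and in the class from 1 to 2 it stands at -0.57 on the left and -0.12 on the right.

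The 35 genes in the upper class were the 8 of node_281 and 27 without annotation. Avicel 1 exceeded the mean of the other cultures in 8 of the 8 (median difference 1.35) and in 24 of the 27 (median 1.09). Together the 35 genes held 17.2% of the counts of Avicel 1, 8.41% of Avicel 2 and 7.98% of Avicel 3, against 0.0148 to 0.0264% in the maltose libraries. The unannotated 27 alone held 7.83%, 4.56% and 4.38%. The larger share in Avicel 1 was thus found in the unannotated genes as well as in node_281.

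Among annotated genes called higher, those furthest above the other cultures in Avicel 1 included, besides AA9, cellobiose dehydrogenase, CE15 and GH92, a sorbitol dehydrogenase-type gene (KOG0024, ID 1613859) and an aquaporin-type gene (KOG0224, ID 1618911). The first was at 19.3, 10.6 and 16.5 CPM on maltose and 244, 36.4 and 34.6 CPM on Avicel (2.76 ± 0.66, adjusted p = 0.015). Without Avicel 1 it was 1.20 (adjusted p = 0.039), and without maltose 2 the call ended (adjusted p = 0.071). The aquaporin-type gene was at 9.84, 14 and 25 CPM on maltose and 108, 26.9 and 30.6 CPM on Avicel (1.76 ± 0.48, adjusted p = 0.032), and its call ended without Avicel 1 (0.83, adjusted p = 0.12), maltose 1 or maltose 2 (adjusted p = 0.11 each), with limma-voom (0.054) and with only the 6 libraries (0.18). The sorbitol dehydrogenase-type call also ended with limma-voom (0.059) and with only the 6 libraries (0.13). Those furthest below were, besides the tripeptidyl-peptidase and CE16, an agmatinase-type gene (KOG2964, ID 1583815) at 14.3, 43.6 and 46.4 CPM on Avicel, a lipase-type gene (KOG4569, ID 1581796) at 4.54, 13.6 and 12.1 CPM, a short-chain reductase-type gene (KOG0725, ID 1611298) at 10.5, 23.3 and 21.6 CPM and a UDP-glycosyltransferase (ID 1641584) at 99.5, 218 and 195 CPM. The call of the reductase-type gene ended without Avicel 2, Avicel 3, maltose 1 or maltose 2, at adjusted p = 0.087, 0.075, 0.081 and 0.057. With only the 6 libraries in the fit, the calls of the lipase-type gene (adjusted p = 0.055), the reductase-type gene (0.094) and the UDP-glycosyltransferase (0.054) ended too.

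By list, Avicel 1 had the highest level for all 6 genes listed as cellulose-active, GH74 among them. Their median log2 difference from maltose was 9.78 in Avicel 1, against 7.89 and 7.79 in Avicel 2 and 3. All 6 belong to node_281, which the study formed on these same libraries, so their shared order is not independent evidence. Avicel 1 was lowest for 5 of the 7 hemicellulose-active genes (median 1.55, against 3.02 and 2.86), and 3 of the 7 had not passed the test against maltose. These medians are the values of CE16 alone. Of the 4 called higher, Avicel 1 was highest for GH5_7 and CE15 and lowest for CE16 and, at 0.888 times the others, GH43. Of the 5 genes listed as pectin-active it was highest in 4 and lowest in 1 (median 2.62, against 2.15 and 2.23), and 2 of the 5 had not passed. The 11 genes of node_303, all called higher on Avicel, had medians of 3.13, 3.47 and 3.57, with Avicel 1 highest in 6 and lowest in 5. The 91 genes that the study selected on aspen had medians of 0.12, 0.56 and 0.62, with Avicel 1 lowest in 60. The 88 selected on wheat straw had 0.46, 0.83 and 0.86, with Avicel 1 lowest in 58. Both lists were picked from nodes high on plant material and not on Avicel, so the Avicel values were part of that choice. Over all genes tested Avicel 1 was highest in 5254 and lowest in 5192 of 11724. Avicel 1 was also the deepest of the 15 libraries (50428442 counts) and had the lowest TMM factor (0.739). Without TMM scaling its values in the size classes shifted downward, as given above. The list values were not recomputed in that way, and the part of depth was not tested.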

How the data were processed

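Mycelium RNA was read as 150-base pairs, aligned with TopHat2 and counted with HTSeq by the authors, and the deposited table holds raw counts per gene model, with the length of each model in bases (other). Neither tool versions nor the strand setting are given in the sources used here. Of the values from 1 to 10 in this file, 71% were even, so both reads of a pair may often have been counted, and halved counts were tried. The deposited normalised table (DESeq 1.5) was not used. All count columns were matched to samples (0 left over).

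Counts were analysed in R 4.3.3 with edgeR 4.0.16 (filterByExpr, TMM, robust quasi-likelihood fit of all 15 libraries with a mean for each group, common biological coefficient of variation 0.281). Calls needed a Benjamini-Hochberg adjusted p under 0.05 and an absolute log2 fold change above 1, the study's thresholds. Per-culture differences used log2 CPM with a prior count of 2. Totals of the 6 libraries were 29367468 to 50428442 counts, and floors of 3 counts cover counting error only. Alternatives included DESeq2 1.42.0, limma-voom (limma 3.58.1), other scalings, filters and sample sets, and each culture left out in turn. The fits were also run on simulated data with the same spread set for every library. That run cannot show how the fits behave when a library stands apart from its group.

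Named genes were all members of node_281, up to 6 examples of each annotation list (the largest changes among called members or the highest levels), the 2 largest rises and 2 largest falls among unannotated called genes with at least 10 CPM and no overlap, the gene with most counts in each Avicel culture, and the 6 annotated raised genes furthest above and the 6 furthest below the other cultures in Avicel 1. The members and lists were chosen with earlier results of these data known. Lists came from the study's published annotation. Gene IDs matched 0 entries of the RefSeq table at hand, which belongs to another strain, so no sequences are shown.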

Additional observations from a re-analysis of the deposited data

How the results depend on the processing

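The counts of 429 genes higher and 521 lower than on maltose fell to 272 and 269 with only the 6 libraries in the fit, and rose to 747 and 778 without Avicel 1, maltose 3 and xylan-galactomannan 2. Leaving out 1 library gave 315 to 519 higher and 352 to 585 lower. The labels do not say what a replicate number shares. Deviations of same-numbered Avicel and maltose libraries correlated at -0.316, 0.0973 and -0.286 across 11724 genes, and Avicel 1 correlated best with maltose 3. These values are tied, since deviations within a group of 3 sum to 0, and pairing by number was not tested. With a replicate block the counts were 410 and 478, and among the named genes only the call of the aquaporin-type gene 1618911 ended (1.65, adjusted p = 0.064). Halving the counts gave 425 and 521, and dropping the minimum fold gave 1350 calls in both directions. With library size alone the calls against aspen were 725 and 3113 and those against wheat straw 280 and 1633, and the median log2 fold change over maltose of all genes was -0.08. Named or likewise annotated genes were checked 833 times. Of these checks 49 only dropped the minimum fold, without a refit, and were counted as kept by construction. Of the 833, 784 kept their side of the threshold, 40 lost a call and 6 gained one. Direction turned in 3, none of them called. These were the KOG0059 gene 1755315, at 0.31 without Avicel 1 and 0.35 without the 3 libraries, and the KOG4569 gene 1604789, at -0.66 without Avicel 1, with a range of -0.66 to 1.38 over the libraries left out. The limits are the 3 libraries a group, the maltose gap between the groups, and the missing annotation of most called genes.

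The median difference of Avicel 1 from the other cultures, -0.49 among raised genes, was -0.85 with library size alone, 0.01 with genes called from all libraries and -0.07 with genes called by DESeq2. Among lowered genes 0.53 became 0.17, 0.04 and 0.02, and with library size alone the values of Avicel 2 and Avicel 3 were 0.21 and 0.28, above that of Avicel 1. For Avicel 2 the values under those settings were 0.05, 0.02 and 0.06 among raised genes, and -0.02 (all libraries) and -0.01 (DESeq2) among lowered genes. For Avicel 3 they were 0.05 (library size) and 0.00 (DESeq2) among raised genes and -0.01 under both gene choices among lowered genes. Genes with at least 10 CPM gave -0.02 for both cultures among lowered genes. With genes called from all libraries and scaling by library size alone, Avicel 1 stood at -0.35 among raised genes and -0.31 among lowered genes. With at least 10 CPM, the genes over 2-fold from the rest of the group numbered 1145, 356 and 244 for Avicel 1 to 3 and 662, 132 and 900 for maltose 1 to 3. The mean share of node_281 in the Avicel libraries, 5.59%, was 3.72 to 6.58% with a culture left out.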

Other observations

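Some annotated genes that did not pass the test differed among the Avicel cultures by as much as those that did. A gene of the ABC transporter class KOG0059 (ID 1755315) was at 19, 19.3 and 19.6 CPM in the maltose libraries and at 4.62, 25.1 and 22.7 CPM in Avicel 1, 2 and 3 (-0.14 ± 0.53, adjusted p = 0.91), and the difference turned to 0.31 without Avicel 1 (adjusted p = 0.68). A lipase-type gene (KOG4569, ID 1604789) was at 22.1, 4.41 and 5.15 CPM on Avicel and at 1.91, 6.2 and 14.7 CPM on maltose (adjusted p = 0.79), and a second one (ID 284504) was at 24.7, 87.5 and 71 CPM on Avicel (adjusted p = 0.15) and passed without Avicel 1 (1.40, adjusted p = 0.017). A sugar-transporter-type gene (KOG0254, ID 1673228) was at 84.7, 30.5 and 36.4 CPM on Avicel and 17.8, 12.2 and 13.2 CPM on maltose (adjusted p = 0.058), and passed with DESeq2 (1.82, adjusted p = 0.0087). All 4 were picked after their values were seen.

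The deviation of Avicel 1 from its group had counterparts in other groups. Across 11724 genes it correlated with that of maltose 3 at 0.34, maltose 1 at -0.32, xylan-galactomannan 1 at 0.40 and xylan-galactomannan 2 at -0.41, and with those of the aspen and wheat straw libraries at -0.04 to 0.05. Deviations within a group of 3 sum to 0, so values within a group are tied, and genes are not independent. Of the 779 genes over 2-fold above in Avicel 1, 266 were also above in maltose 3 (34.1% of the former and 32.2% of the 825 of the latter) and 57 were below there. Of the 1126 below in Avicel 1, 319 were below in maltose 3 (28.3% and 36.5% of the 2 lists). Against xylan-galactomannan 2 the sides were crossed, with 340 of the 779 below and 382 of the 1126 above. In xylan-galactomannan 1, 292 of the 779 were above and 42 below, and 266 of the 1126 were below and 51 above. Over all 11724 genes, 825 were above and 875 below in maltose 3. The numbers were 1129 and 1086 in xylan-galactomannan 2 and 668 and 797 in xylan-galactomannan 1. A shared source of these deviations was not tested.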
